A study of Homo sapiens with 10 samples.

Results

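The genes described here encode the hydrolases, membrane proteins and proton pump of the lysosome, together with TFEB, the transcription factor that controls many of them. The list holds 41 genes. Its members were found among the array probes through the RefSeq accession printed for each probe, and 40 of the 41 had a matched probe. Of these, 38 were tested, since a probe passed the scanner's background test on 3 or more arrays of a group, and 17379 genes were tested in all. The arrays measured total RNA of MEG-01, a human megakaryoblastic leukemia cell line, in a single Cy3 channel. In 5 samples the cells had been transfected by nucleofection with miR-1225-3p precursor at 200 nM, in the other 5 with scrambled precursor at 200 nM, and RNA was taken after 24 hours. The titles of the second group name a scrambled precursor while its source label says no treatment, and the titles and the methods were followed. All samples share a single cell line, so the replicates are repeated cultures and not different donors. The arrays read RNA of whole cultures, in which fewer cells of a type and less RNA per cell cannot be told apart.

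Lysosomes digest proteins, glycans and lipids with hydrolases that work only at acid pH. The V-ATPase keeps that pH by pumping protons across the lysosomal membrane: its V1 sector hydrolyses ATP on the cytosolic face, and its V0 sector, set in the membrane, carries the protons. TFEB enters the nucleus when nutrients are scarce or lysosomes are damaged and binds CLEAR elements, E-box sequences near the start sites of lysosomal and V-ATPase genes. In megakaryocytes and platelets, dense granules, alpha granules and lysosomes arise along related endosomal routes, and LAMP proteins mark the membranes of lysosomes and dense granules.

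The transfected microRNA and the E-box elements of the members are shown as the sequences that set this experiment beside lysosomal gene control. In RefSeq (GRCh38.p14) mature hsa-miR-1225-3p lies at chr16:2090195-2090216 on the minus strand and has 22 bases, with the seed at bases 2 to 8 in capitals below.
hsa-miR-1225-3p: uGAGCCCCugugccgcccccag
Promoter windows of 250 bases before to 50 bases after an annotated start were listed for 28 of the 41 members. Read on both strands, CACGTG was present in the windows of 10 of these 28 members (35.7%), against 8.77% of 27305 genes with a window. A gene was counted if any of its windows matched. Counted by window, CACGTG was in 23.8% of the 42 windows of members, against 7.26% of 35116 windows. By gene, its extension TCACGTG was in 9 members (32.1% against 4.49% of genes). The palindrome TCACGTGA, which contains both shorter motifs, was in 6 members (21.4% against 1.18%). The 9 members with TCACGTG were LAMP1, MCOLN1, CTSA, CTSD, GAA, NEU1, ATP6V0B, ATP6V0D1 and ATP6V1G1. LAMP1 held 6 sites, and its window is shown in stretches with 12 flanking bases, followed by those of members of each sector and by MCOLN1. Capitals mark TCACGTG or its extension.
LAMP1 (chr13:113297034-113297114, plus strand): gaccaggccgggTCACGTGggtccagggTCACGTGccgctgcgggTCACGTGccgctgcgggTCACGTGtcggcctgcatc
LAMP1 (chr13:113297198-113297256, plus strand): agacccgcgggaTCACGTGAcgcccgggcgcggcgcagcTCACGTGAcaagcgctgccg
ATP6V1G1 (chr9:114587698-114587729, plus strand): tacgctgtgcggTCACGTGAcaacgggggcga
ATP6V0D1 (chr16:67481198-67481229, minus strand): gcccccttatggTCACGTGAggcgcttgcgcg
ATP6V0B (chr1:43974890-43974938, plus strand): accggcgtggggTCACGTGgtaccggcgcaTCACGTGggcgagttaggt
MCOLN1 (chr19:7522570-7522628, plus strand): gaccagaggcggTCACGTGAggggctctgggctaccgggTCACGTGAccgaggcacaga
The sites began 59 bases before the start of ATP6V1G1 and 60 bases before that of ATP6V0D1. Of the members with TCACGTG, LAMP1 and ATP6V1G1 were higher after miR-1225-3p, ATP6V0B and ATP6V0D1 were lower, and the other 5 did not pass the test. The motif thus stood in promoters of members that moved in either direction. A match describes these letters in this window and does not show binding.

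The share of spots well above background ranged from 41.95% to 53.85% after miR-1225-3p and from 43.09% to 61.18% in scrambled samples. Of the 2 slides used, slide 1 carried miR-1225-3p replicates 1 and 2 and scrambled replicates 1, 3 and 5. Of 13 megakaryocytic marker genes with a probe, 10 were well above background on all 5 scrambled arrays, while PF4, which encodes platelet factor 4, was so on none. Of 10 markers of other cell types, 4 were well above background on all 5 scrambled arrays (CD3D, CD14, EPCAM and PECAM1), while MS4A1 and ALB were so on none. Among these lists limma called ITGA2B, FLI1 and NFE2 lower and RUNX1, EPCAM and CD3E higher after miR-1225-3p, and their part in the results below was not tested. CD3E was well above background on 3 miR-1225-3p arrays and 1 scrambled array. It passed the background filter only through the miR-1225-3p arrays, where its signal was higher. After 75th percentile scaling 1 of the megakaryocytic markers was called lower, and after quantile normalization 0. Values are log2 intensities after cyclic loess normalization, differences are log2 fold changes of miR-1225-3p over scrambled with standard errors, and limma's p-values were adjusted over all genes tested. Precision is limited by the number of arrays.

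miR-1225-3p replicate 5 stood apart from the other 4 miR-1225-3p arrays. For the 9 members that were lower, the median deviation from the scrambled mean was -0.93, -2.22, -1.68 and -2.15 on replicates 1 to 4 and -0.05 on replicate 5. For the 5 members that were higher, it was 0.71, 0.76, 0.65 and 0.70 on replicates 1 to 4 and 0.18 on replicate 5. The scrambled arrays lay between -0.12 and 0.12 for the first set and between -0.20 and 0.17 for the second. These sets were chosen by the same arrays, so the deviations describe them and test nothing. The replicate SD was larger in the miR-1225-3p group for 30 of 38 members, and its median over members was 0.298 there and 0.156 in the scrambled group. Over all genes the miR-1225-3p group had the larger SD for 75.5%. For both sets the array labelled miR-1225-3p replicate 5 thus lay with or near the scrambled arrays. The arrays did not measure the mature microRNA. The paper reports successful transfection, checked with a fluorescent marker and by quantitative PCR of the microRNA. That PCR result is shown for the groups and not for each sample. Whether the sample labelled replicate 5 took up the precursor like the others, or carries the right label, was not tested here. Results are given for all 10 arrays, and without replicate 5 for the called members and some that were not called. Replicate 5 was singled out from these same values. Values and p-values without it therefore describe the other arrays and are no further support. Over all genes the share called rose from 35.0% to 55.4% when it was left out.

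After miR-1225-3p, 14 of 38 tested members had an adjusted p under 0.05 by limma (36.8%), against a background of 35.0% of all genes tested. The share among members was close to that of all genes and is no result about the list. LAMP1, ASAH1 and the V1 subunits ATP6V1C1, ATP6V1D and ATP6V1G1 were higher. TFEB, TPP1, FUCA1, NPC2, PSAP, SMPD1, ATP6V0B, ATP6V0D1 and ATP6V1B2 were lower. Over all genes 17.0% were called higher and 18.1% lower. Across the 38 members the median log2 fold change was -0.29, against -0.06 over all genes. Of the members, 8 had a log2 fold change above 0 and 30 below it. The 5 members called with more than a 2-fold difference were all lower (TPP1, ATP6V1B2, PSAP, TFEB and SMPD1), where 17.4% of all genes were called with such a difference in either direction. SMPD1 passed the background filter only through the scrambled arrays, where its signal was higher. Large differences leaned lower over all genes too, with 989 called higher and 2028 lower (11.7%) at more than 2-fold. The 5 arrays of one group lay wholly above or below the 5 of the other for 5 members, against 12.7% of all genes.

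Split by function, 6 of 14 V-ATPase subunits and accessory proteins were called, 3 higher and 3 lower, with a median log2 fold change of -0.19, and after 75th percentile scaling 5 were higher and 1 lower. Of 23 tested lysosomal proteins outside the pump, 7 were called, 2 higher and 5 lower, with a median of -0.31, and after that scaling 4 were higher and 3 lower. The share called was 42.9% in the first group and 30.4% in the second, beside the 35.0% of all genes. Members of both groups differed in opposite directions. The lists by role below are short, and their counts describe them only.

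**Figure D1:**
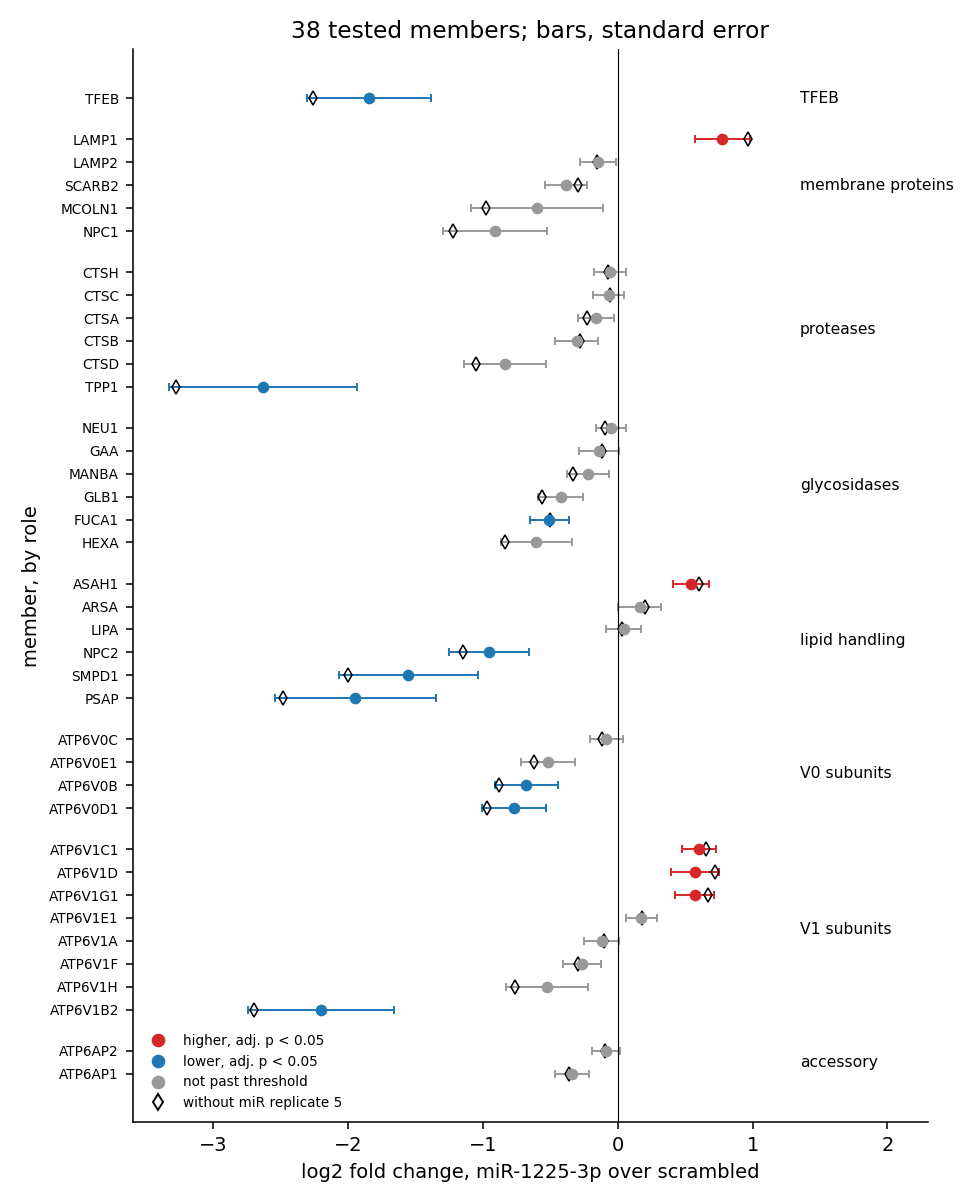
Log2 fold change of miR-1225-3p over scrambled (x axis) for the 38 tested members (y axis), ordered by role. Filled circles with bars are limma estimates and standard errors from 5 arrays per group, and open diamonds are the estimates without miR-1225-3p replicate 5. Values of the membrane proteins, the lipid-handling members and the V1 subunits lie on either side of 0 and those of the other roles below it, with TPP1 lowest at -2.63 and LAMP1 highest at 0.78. After 75th percentile scaling the values of 12 members below 0 that did not pass the test lie above 0.

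TFEB, the regulator of the set, was 3.60-fold lower after miR-1225-3p. On the miR-1225-3p arrays its log2 intensity was 8.05, 8.05, 8.64, 7.5 and 10.11 in replicates 1 to 5. On the scrambled arrays it was 10.76, 10.82, 9.93, 10.51 and 9.56. Replicates 1 to 4 lay below every scrambled array, and replicate 5 lay within the scrambled range, so the groups overlapped. The log2 fold change was -1.85 ± 0.461 (SE, 5 arrays per group, adjusted p = 0.019 by limma), and without replicate 5 it was -2.26 (adjusted p = 0.000403). Another kept probe of TFEB carries the same accession, and for it the log2 fold change was -0.19 ± 0.199 and limma's adjusted p over all probes was 0.455. The probe that carried the difference has 1 spot per array. The lower TFEB signal passed the threshold with 1 of its 2 probes, and the difference between the probes was not tested.

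Among the lysosomal membrane proteins, LAMP1 rose and the other 4 tested members did not pass the threshold. LAMP1, a heavily glycosylated protein that lines the lysosomal membrane, had a log2 intensity of 14.17, 14.33, 14.10, 14.03 and 13.20 on miR-1225-3p replicates 1 to 5. On the scrambled arrays it was 13.20, 13.08, 13.19, 13.12 and 13.36. Replicates 1 to 4 lay above all scrambled arrays and replicate 5 among them. The log2 fold change of LAMP1 was 0.78 ± 0.204 (1.71-fold, adjusted p = 0.0217 by limma), and it was 0.97 without replicate 5 (adjusted p = 0.000167). For LAMP2, whose isoforms serve membrane stability and chaperone-mediated autophagy, the miR-1225-3p arrays gave 10.63, 10.71, 10.56, 10.19 and 10.54 and the scrambled arrays 10.65, 10.57, 10.71, 10.59 and 10.86. These groups overlapped throughout, with a log2 fold change of -0.15 and a 95% interval from -0.44 to 0.15, which turned to 0.30 after 75th percentile scaling. MCOLN1, the lysosomal calcium channel, gave 4.72, 4.15, 3.66, 2.94 and 5.76 on the miR-1225-3p arrays and 5.15, 3.92, 5.38, 4.65 and 5.11 on the scrambled arrays. It was well above background on only 2 miR-1225-3p and 3 scrambled arrays, and its highest value was that of miR-1225-3p replicate 5. MCOLN1 differed by -0.60 ± 0.489 on the log2 scale (adjusted p = 0.344 by limma), and by -0.975 without replicate 5 (adjusted p = 0.0614). NPC1, which exports cholesterol from the lysosome, stood at -0.91 on the log2 scale (adjusted p = 0.0854 by limma) with all 10 arrays and -1.22 (adjusted p = 0.0073) without replicate 5. SCARB2, the receptor that carries beta-glucocerebrosidase to lysosomes, had -0.38 (adjusted p = 0.0778 by limma), and -0.29 without replicate 5 (adjusted p = 0.0954). No probe was matched to the tetraspanin CD63.

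The proteases were led by TPP1, a serine protease that removes tripeptides and whose loss causes a childhood neuronal ceroid lipofuscinosis. Its log2 intensity was 10.67, 10.08, 10.63, 9.24 and 13.38 on miR-1225-3p replicates 1 to 5 and 14.61, 13.91, 12.87, 13.13 and 12.65 on the scrambled arrays. Replicates 1 to 4 lay more than 1 log2 unit below the lowest scrambled array, and replicate 5 lay within the scrambled range. TPP1 fell by 2.63 on the log2 scale (SE 0.698, 6.21-fold, adjusted p = 0.0221 by limma), and without replicate 5 the value was -3.28 (adjusted p = 0.000379). Its second probe, of the same accession, also passed, with a log2 fold change of -1.21 ± 0.249 (adjusted p = 0.0146 over all probes by limma). TPP1 had the largest replicate SD of all members in both groups, 1.55 and 0.815. The aspartic protease CTSD had a log2 fold change of -0.84 and missed the threshold (adjusted p = 0.0542 by limma), and without replicate 5 the value was -1.05 (adjusted p = 0.0083). CTSA, which protects beta-galactosidase and sialidase, and the cysteine proteases CTSB, CTSC and CTSH had values between -0.31 and -0.06, with adjusted p between 0.151 and 0.699 by limma. Without replicate 5 these did not pass either, with adjusted p between 0.121 and 0.663 by limma. CTSS and CTSZ were not tested, since CTSS was well above background on 1 miR-1225-3p and 2 scrambled arrays and CTSZ on 0 and 1.

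Of the 6 glycosidases, FUCA1 alone passed the threshold after loess. FUCA1, which removes fucose from glycoproteins, gave 7.30, 7.71, 7.55, 7.96 and 7.61 on the miR-1225-3p arrays and 7.92, 8.12, 8.29, 8.23 and 8.11 on the scrambled arrays. Replicate 4 lay just above the lowest scrambled array and the other 4 miR-1225-3p arrays below it, replicate 5 included. FUCA1 fell by 0.507 on the log2 scale (SE 0.147, adjusted p = 0.028 by limma), and without replicate 5 the value was -0.50, since that array followed its group here. The call was lost after 75th percentile scaling (-0.34, adjusted p = 0.15 by limma), where NEU1 alone was called, higher, and after quantile normalization (-0.34, adjusted p = 0.135). HEXA, the alpha subunit of beta-hexosaminidase A, had -0.60 (adjusted p = 0.0924 by limma) and beta-galactosidase GLB1 had -0.42 (adjusted p = 0.0655). Without replicate 5 these were -0.84 (adjusted p = 0.003) and -0.56 (adjusted p = 0.00197). Acid alpha-glucosidase GAA, the sialidase NEU1 and beta-mannosidase MANBA had values between -0.22 and -0.05, with adjusted p of 0.275 or more by limma.

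Genes for the breakdown and transport of lipids differed in both directions, and 4 of 6 passed the threshold, beside 35.0% of all genes. PSAP, the precursor of the saposins that present sphingolipids to their hydrolases, gave 10.24, 9.34, 9.17, 8.02 and 11.87 on the miR-1225-3p arrays and 11.43, 11.19, 11.83, 11.63 and 12.30 on the scrambled arrays. SMPD1, acid sphingomyelinase, gave 5.65, 4.36, 3.86, 4.43 and 6.83 against 6.06, 6.21, 6.91, 6.54 and 7.16. NPC2, which hands cholesterol to NPC1, gave 12.40, 11.44, 10.99, 11.10 and 12.45 against 12.67, 12.70, 12.63, 12.71 and 12.45. In all 3 genes replicates 1 to 4 lay below the scrambled arrays and replicate 5 lay within their range. For PSAP the log2 fold change was -1.95 ± 0.596 (adjusted p = 0.0325 by limma), with -2.20 for its second probe of the same accession. SMPD1 had -1.55 ± 0.517 (adjusted p = 0.0416 by limma) and was well above background on only 2 of 5 miR-1225-3p arrays. Its probe was kept through the scrambled arrays, where it was so on all 5. NPC2 had -0.95 ± 0.297 (adjusted p = 0.0343 by limma), a call that ended after 75th percentile scaling (-0.42, adjusted p = 0.136). SMPD1 missed the threshold after quantile normalization (adjusted p = 0.0542 by limma). Without replicate 5 the values were -2.48 for PSAP, -2.0 for SMPD1 and -1.15 for NPC2, with adjusted p of 0.000897, 0.00164 and 0.00544 by limma. ASAH1, acid ceramidase, went the other way. It gave 12.39, 12.37, 12.37, 12.51 and 12.13 on the miR-1225-3p arrays and 11.61, 11.70, 11.88, 11.79 and 12.08 on the scrambled arrays, so that all 5 of the first group lay above all 5 of the second. ASAH1 rose by 0.54 on the log2 scale (SE 0.133, adjusted p = 0.0181 by limma), and the exact permutation test over 5 against 5 arrays gave p = 0.00794, the smallest it allows. Without replicate 5 its value was 0.60. Acid lipase LIPA had 0.04, which turned to -0.08 without normalization, and arylsulfatase A, ARSA, had 0.16, with adjusted p of 0.795 and 0.437 by limma. The enzymes on either side of ceramide differed in direction, with SMPD1, which releases it, lower and ASAH1, which cleaves it, higher.

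**Figure D2:**
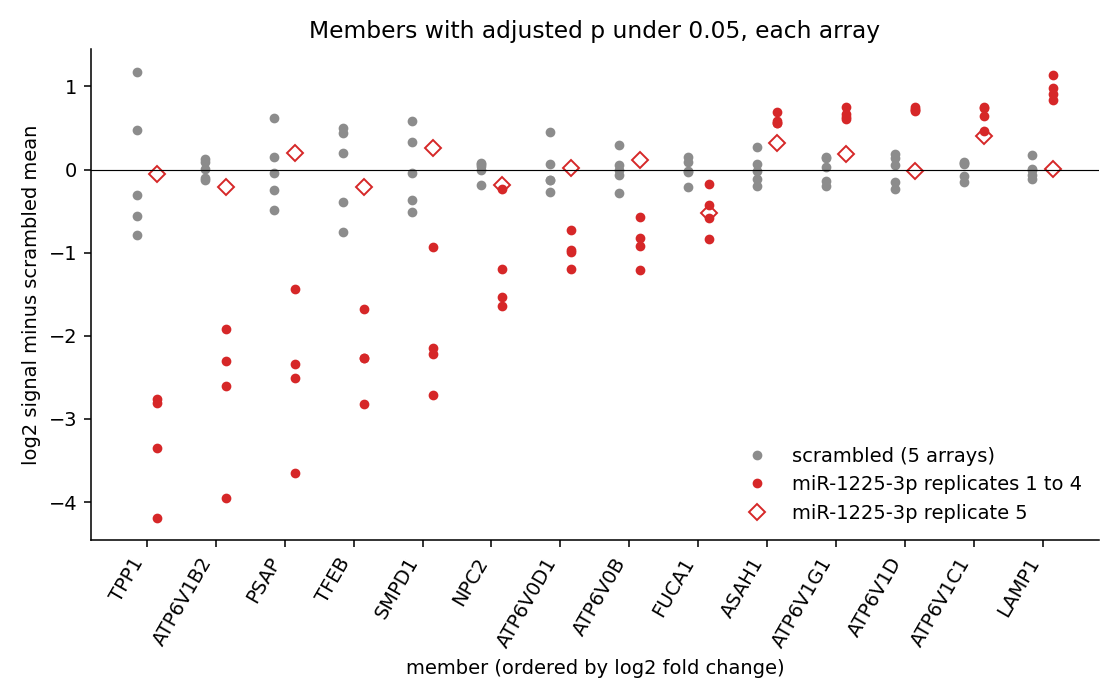
Log2 signal of each array minus the mean of the 5 scrambled arrays (y axis) for the 14 members with adjusted p under 0.05 by limma (x axis, ordered by log2 fold change). Grey points are scrambled arrays, red points are miR-1225-3p replicates 1 to 4 and open diamonds are miR-1225-3p replicate 5. The diamonds lie near 0 for TPP1, PSAP, TFEB, SMPD1 and LAMP1, and with the red points for FUCA1 and ATP6V1C1.

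In the V0 sector 2 of 4 subunits were lower and none was higher, beside 18.1% lower and 17.0% higher over all genes. After 75th percentile scaling none was called lower and 1 higher. ATP6V0D1, the subunit that couples the rotor to V1, gave 8.39, 8.15, 8.13, 7.92 and 9.14 on the miR-1225-3p arrays and 9.57, 9.19, 8.99, 8.85 and 9.0 on the scrambled arrays. ATP6V0B, a proteolipid of the rotor ring, gave 11.80, 11.45, 11.55, 11.16 and 12.49 against 12.67, 12.43, 12.36, 12.30 and 12.09. Again replicates 1 to 4 lay below the scrambled arrays and replicate 5 within them. For ATP6V0D1 the difference was -0.77 ± 0.238 (adjusted p = 0.0334 by limma) and for ATP6V0B it was -0.68 ± 0.235 (adjusted p = 0.0468). Without replicate 5 these were -0.97 and -0.88, and after 75th percentile scaling they were -0.50 (adjusted p = 0.065 by limma) and -0.16 (adjusted p = 0.458). ATP6V0E1, a small membrane subunit, had -0.52 (adjusted p = 0.064 by limma), and ATP6V0C, the main proteolipid of the ring, had -0.08 (adjusted p = 0.59), which turned to 0.60 (adjusted p = 0.027) after 75th percentile scaling.

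In the V1 sector 3 of 8 subunits were higher and 1 was lower, beside 17.0% higher and 18.1% lower over all genes. ATP6V1B2, the B subunit of the ATP-hydrolysing hexamer and the form found in most tissues, gave 9.0, 8.62, 8.32, 6.97 and 10.71 on the miR-1225-3p arrays and 11.05, 10.82, 10.93, 10.80 and 11.02 on the scrambled arrays. All 5 miR-1225-3p arrays lay below all 5 scrambled arrays, replicate 5 by the smallest gap. ATP6V1B2 fell by 2.2 on the log2 scale (SE 0.542, 4.6-fold, adjusted p = 0.0185 by limma), and without replicate 5 the value was -2.70. ATP6V1A, the A subunit that alternates with B in the same hexamer, had a log2 fold change of -0.12 with a 95% interval from -0.40 to 0.17 (adjusted p = 0.469 by limma). The 2 kinds of subunit of the hexamer thus had different values, and the difference between them was not tested. ATP6V1C1, which clamps V1 to V0, gave 10.59, 10.61, 10.50, 10.32 and 10.26 against 9.77, 9.70, 9.92, 9.93 and 9.94 on the scrambled arrays, without overlap. ATP6V1G1, part of the peripheral stalks, gave 12.46, 12.54, 12.39, 12.42 and 11.97 against 11.59, 11.82, 11.94, 11.93 and 11.65, also without overlap. ATP6V1D, in the central shaft, gave 9.48, 9.52, 9.49, 9.5 and 8.75 against 8.54, 8.62, 8.83, 8.91 and 8.96. For ATP6V1D replicates 1 to 4 lay above the scrambled arrays and replicate 5 among them. The log2 fold changes of these subunits were alike in size, 0.60 ± 0.124 for ATP6V1C1, 0.57 ± 0.145 for ATP6V1G1 and 0.57 ± 0.179 for ATP6V1D, with adjusted p of 0.0139, 0.0202 and 0.0345 by limma. Without replicate 5 they were 0.65, 0.67 and 0.72. A second probe of ATP6V1C1 had 0.74. The stalk subunit ATP6V1E1, the shaft subunit ATP6V1F and the regulatory subunit ATP6V1H had 0.17, -0.26 and -0.52, with adjusted p of 0.245, 0.154 and 0.191 by limma.

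Of the accessory proteins of the pump, neither passed the threshold. ATP6AP1, which assists assembly of the V0 sector, stood at -0.34 on the log2 scale (adjusted p = 0.0608 by limma), although all 5 miR-1225-3p arrays lay below all 5 scrambled arrays, and the value turned to 0.19 after 75th percentile scaling. ATP6AP2, the (pro)renin receptor, had -0.09 (adjusted p = 0.526 by limma).

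Of the 38 members, 7 had more than 1 kept probe. Both probes of TPP1, PSAP and ATP6V1C1 passed the threshold in the same direction. The probes of CTSC and LAMP2, which carry accessions of different transcripts, lay on either side of 0 and none of them passed. For CTSC they had log2 fold changes of -0.07, -1.02 and 0.53, and for LAMP2 of -0.15, -0.42 and 0.28. The second probe of CTSA had -0.98 (adjusted p = 0.0747 over all probes by limma) where the brightest had -0.16. With all kept probes of a gene averaged, 14 members were called, as with the brightest probe, and they were the same genes.

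**Figure D3:**
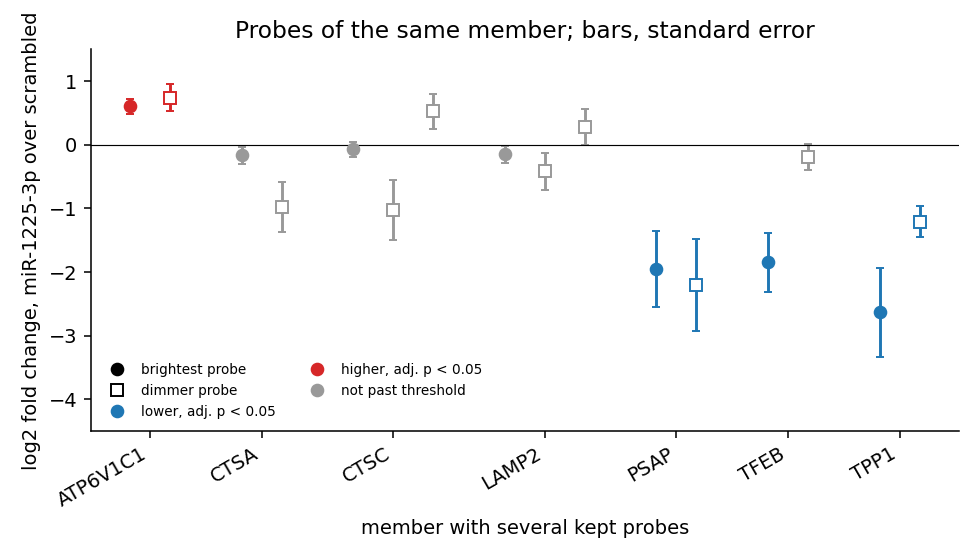
Log2 fold change of miR-1225-3p over scrambled (y axis) for each kept probe of the 7 members with several (x axis). Circles are the brightest probe of a gene and open squares the dimmer ones, with bars for the standard error over 5 arrays per group. The TFEB probes stand at -1.85 and -0.19, while those of PSAP and of ATP6V1C1 lie close to each other.

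The number of members called depended on the arrays in the fit. Without miR-1225-3p replicate 5, limma called 22 members, 5 higher and 17 lower, against 55.4% of all genes, and the 14 members called with all arrays were among them. The 8 added members were NPC1, CTSD, HEXA, GLB1, MANBA, ATP6V0E1, ATP6V1H and ATP6AP1, all lower. In that comparison the groups did not overlap for 19 members, 5 with the miR-1225-3p arrays above and 14 below, against 46.0% of all genes. Each other array left out lowered the count of members and of all genes. Without miR-1225-3p replicates 1 to 4 limma called 9, 3, 4 and 10 members (23.7%, 7.89%, 10.5% and 26.3%). In those fits 24.4%, 12.3%, 13% and 20.3% of all genes were called. Without scrambled replicates 1 to 5 it called 7, 7, 7, 7 and 9 members (18.4% for each 7 and 23.7% for 9). There 19.4%, 19.3%, 19.5%, 17.7% and 27.1% of all genes were called. ATP6V1C1, ATP6V1B2 and ASAH1 passed whichever array was left out, with adjusted p by limma of at most 0.043, 0.0494 and 0.0494. The other 11 missed the threshold without at least 1 array, with a highest adjusted p between 0.0517 for TFEB and 0.106 for ATP6V0B.

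The slides bore on the calls as well. On slide 1 alone (2 arrays after miR-1225-3p, 3 scrambled) limma called 10 members (26.3%), against 25.9% of all genes. Slide 2 held miR-1225-3p replicates 3 to 5 and 2 scrambled arrays. Within it limma called 0 members and 0 genes in all, and 0 members had an unadjusted p under 0.05. The values themselves were close between slides for several members: -2.19 and -2.14 for ATP6V1B2, -2.04 and -1.91 for TFEB, 0.52 and 0.60 for ASAH1, and 0.72 and 0.54 for ATP6V1C1 on slides 1 and 2. Others were further apart, with -0.66 and -1.19 for NPC2 and 0.77 and 0.39 for ATP6V1G1. The standard errors on slide 2, which held replicate 5, were 1.1 for ATP6V1B2 and 0.784 for TFEB. On slide 1 they were 0.191 and 0.376. The likeness of the slides was not tested. With the slide as a block, limma called 11 members (28.9%), 5 higher and 6 lower, all among the 14, against 30.4% of all genes.

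The scaling moved the balance of directions. After scaling each array to its 75th percentile in place of cyclic loess, 14 members were called, 9 higher and 5 lower, against 41.1% of all genes (4562 higher and 2585 lower), and 10 of them were among the 14 called after loess. Without normalization 3 members were called (7.89%), all lower, against 7.28% of all genes. The median of all genes was -0.06 after loess, 0.16 after 75th percentile scaling, 0.08 after quantile normalization and -0.26 without normalization, and the members' median was -0.29, 0.20, -0.19 and -0.23. Relative to the median of all genes, the members' median was -0.23 after loess and 0.04 after 75th percentile scaling, so the lower median of the list depended on the scaling. CTSH, NEU1, ATP6V0C and ATP6V1E1 were called higher after 75th percentile scaling only among these scalings. The 14 members called after loess kept their direction under every alternative run.

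**Figure D4:**
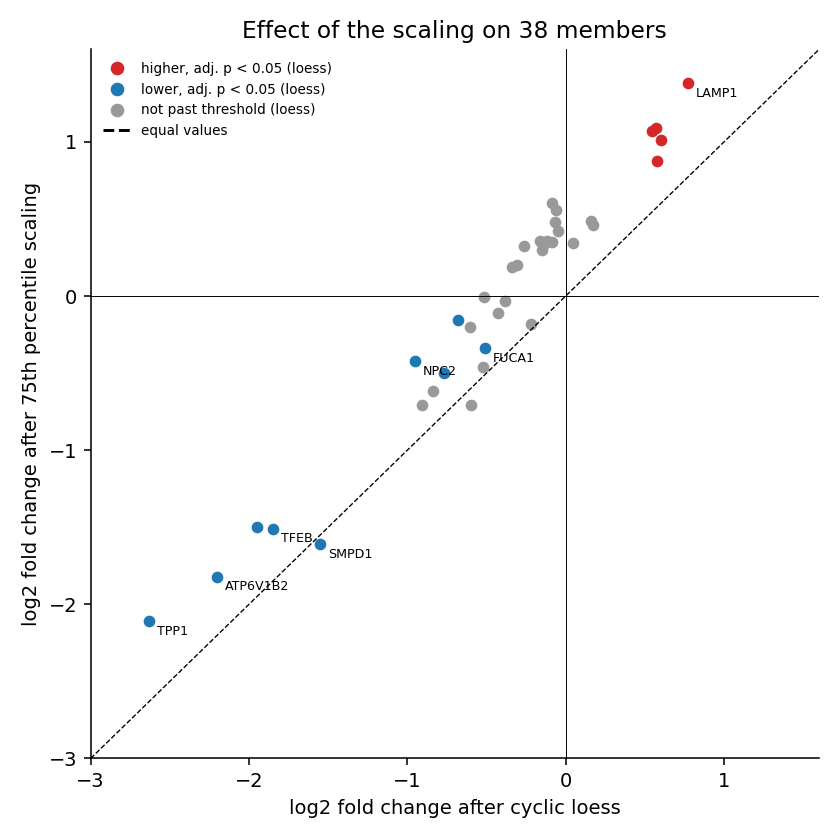
Log2 fold change of the 38 members after cyclic loess (x axis) and after 75th percentile scaling (y axis), each from 5 arrays per group. Red and blue points were called higher and lower after loess, grey points were not called, and the dashed line marks equal values. Most points lie above the line, and no red or blue point changes sign, while 12 grey points below 0 on the x axis lie above 0 on the y axis.

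Genes outside the list that serve the same organelle were called at a similar rate. Of 147 such genes 132 were tested, and 46 were called (34.8%), 21 higher and 25 lower, beside 35.0% of all genes. Among the 25 genes that sort enzymes to the lysosome and fuse its membranes, 13 were called, 3 higher and 10 lower, with a median log2 fold change of -0.50, and after 75th percentile scaling 5 were higher and 6 lower with a median of -0.19. Both receptors that carry mannose 6-phosphate tagged hydrolases fell: M6PR had -1.99 ± 0.545 (adjusted p = 0.0239 by limma) and IGF2R had -1.59 ± 0.548 (adjusted p = 0.046), though IGF2R missed the threshold after quantile normalization (adjusted p = 0.0523). M6PR gave 6.96, 5.4, 4.58, 5.10 and 7.79 on the miR-1225-3p arrays, against 7.91, 7.87, 8.11, 8.13 and 7.76 on the scrambled arrays, so that replicate 5 lay among the latter. In contrast VPS18, a core subunit of the tethering complexes of late endosomes, rose by 1.99 on the log2 scale (adjusted p = 0.0147 by limma). Its fellow core subunits VPS11, VPS16 and VPS33A were called lower, at -1.925, -0.61 and -0.50 (adjusted p = 0.0165, 0.0216 and 0.0342 by limma). VPS11 was well above background on only 1 miR-1225-3p array and passed the background filter only through the scrambled arrays. Of 34 other hydrolases 4 were higher and 5 lower, led by the acid nuclease DNASE2 at -2.08 and the sulfatase GALNS at -1.37, each well above background on only 2 miR-1225-3p arrays. Of 15 other lysosomal membrane proteins 3 were higher and 3 lower, with OSTM1, the partner of a chloride transporter, at 1.06 and CLN3 at -1.04. Among 4 tested V-ATPase subunit isoforms, ATP6V1G2 was higher at 0.51 and ATP6V1C2 lower at -1.21. CLN3 and ATP6V1C2 were well above background on only 2 miR-1225-3p arrays. Like DNASE2 and GALNS, they passed the background filter only through the scrambled arrays, where their signal was higher. After quantile normalization CLN3 and ATP6V1C2 missed the threshold, with adjusted p of 0.0594 and 0.057 by limma.

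The nutrient-sensing list holds genes that govern TFEB together with its relatives TFE3 and MITF. Of its 19 tested genes 4 were called after loess and 9 after 75th percentile scaling, all higher, beside 35.0% and 41.1% of all genes. They included RHEB, the GTPase that activates mTORC1, at 1.06 and TSC1, part of the complex that inactivates RHEB, at 0.71, both with an adjusted p of 0.0136 by limma. TFE3 and MITF, which bind the same elements as TFEB, had -0.66 (adjusted p = 0.19 by limma) and 0.29 (adjusted p = 0.166) and did not pass the threshold. Of 15 autophagy genes 3 were higher and 3 lower, the latter including ATG16L1, which helps to attach lipid to LC3 proteins, at -2.42 and the LC3 relative GABARAP at -1.35. The 3 that were higher were the LC3 gene MAP1LC3B at 0.87, ATG5 at 0.75 and ATG12 at 0.72. After 75th percentile scaling 6 of the 15 autophagy genes were higher and 2 lower, and after quantile normalization 5 and 3. Of 20 genes of lysosome-related organelles 3 were higher and 3 lower, among them VPS33B, required for alpha granules, at -1.48 and DTNBP1, a subunit of the BLOC-1 complex, at 0.89. In that list 6 were higher and 3 lower after 75th percentile scaling, and among the other hydrolases above 7 were higher and 4 lower.

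**Figure D5:**
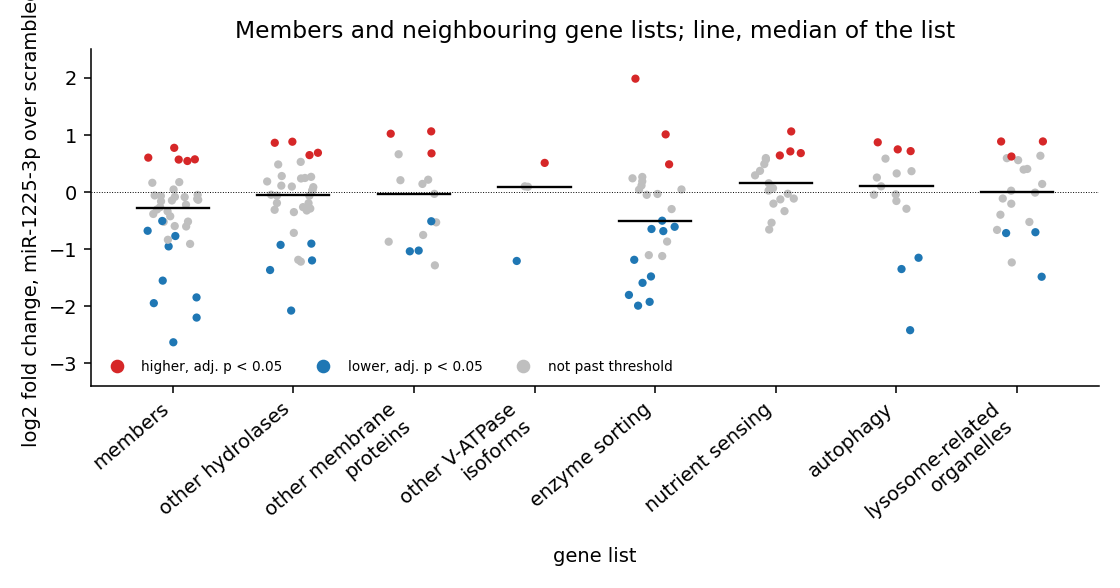
Log2 fold change of miR-1225-3p over scrambled (y axis) for the 38 tested members and 7 neighbouring gene lists (x axis). Each point is a gene, coloured by limma's call with 5 arrays per group, the points are spread sideways at random, and the line is the median of the list. The median is -0.29 for the members and -0.50 for the sorting genes, and both colours appear in all lists but nutrient sensing.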

How the data were processed

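Each of 10 Agilent arrays, 5 per group, was read in 1 colour. What the authors deposited per sample was Agilent Feature Extraction output, whose processed signal is an intensity with background subtracted, with median signal and background as further intensities, and a table of normalized log2 values. Per the labels the software version was 10.7.3.1. The deposited log2 values had medians of 4.769 to 5.151 per array, and the methods describe them as logs less the log of a geometric mean of controls, without saying which controls. After centring of probes they correlated at 0.981 to 0.998 per array with the values used here.

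From the processed signal, log2 values were taken and put through cyclic loess, following the methods, with limma 3.58.1 (R 4.3.3, 3 iterations of the fast method). Outlier spots were left out, 4259 control spots were dropped, and a probe's spots were averaged. Of 42405 probes 20648 were kept, those above background by the scanner's test on 3 or more arrays of a group. RefSeq accessions gave symbols to 24910 probes, the others keep the file's accession, and the brightest kept probe stood for a gene. limma's lmFit and eBayes compared the groups, and p-values were adjusted by Benjamini-Hochberg over 17379 genes, with a threshold of 0.05. The script was tested on simulated data. Single genes also had an exact permutation test. Promoter and microRNA sequences are those of RefSeq (GRCh38.p14).

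Members and lists were chosen with earlier results of these data known. Per-array values are given for TFEB, MCOLN1, LAMP1 and LAMP2, for members called in each role (the 3 largest, and ASAH1 and ATP6V1G1 beside them), and for M6PR, and elsewhere the 2 largest called genes of a list are named. Further called genes of the same lists are named beside VPS18 and ATG16L1, since they differed in the other direction. Replicates are labelled biological, and p-values measure the spread between these samples. Alternatives covered normalization, source of values, dim probes, outlier spots, probe choice, test, array weights, replicate and slide blocks, and each array left out. A planned background correction by normexp (offset 50) used the median signal, since the array output held no mean signal. A marker gene is not reported here.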

Additional observations from a re-analysis of the deposited data

Results flagged for a closer look

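Within 76 groups of 5 arrays (38 members in 2 groups), 5 had an array far from the other 4 of its group, with a gap of more than 0.71 of the group's range, where chance gives about 1 in 20 groups, or 3.8. In 3 of them the array was miR-1225-3p replicate 5. It read 13.20 for LAMP1, where the nearest other array of its group read 14.03. It read 8.75 for ATP6V1D, with the nearest at 9.48, and 11.97 for ATP6V1G1, with the nearest at 12.39. In the others the array was scrambled replicate 1, which read 6.65 for MANBA, with the nearest at 6.89, and 12.51 for ATP6AP1, with the nearest at 12.34.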

How the results depend on the processing

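Numbers are called members, V-ATPase members, lysosomal proteins, other pathway genes and all genes, in this order, and were 14, 6, 7, 46 and 6091 with all arrays. They were 3, 1, 1, 7 and 1266 without normalization, 7, 3, 3, 30 and 3411 with no filter on dim probes, and 0 in each within slide 2, where 1220 of all genes had an unadjusted p under 0.05. Array weights gave 25 members, 15 lysosomal proteins, 87 other pathway genes and 11520 genes, and the methods' t-test 4 lysosomal proteins. With each array left out in turn, they were 3 to 22, 2 to 9, 1 to 12, 15 to 78 and 2129 to 9624. With the replicate block limma called 0 in each, with an unadjusted p under 0.05 for 17 members and 7474 genes, and same-numbered arrays deviated together at correlations of -0.402 to 0.072, so the numbers do not pair the arrays. The members' median was -0.318 to -0.251 with an array left out and turned to 0.196 with 75th percentile scaling. Members that were not called changed sign as follows. With 75th percentile scaling LAMP2 (0.296), CTSA (0.354), CTSB (0.200), CTSC (0.480), CTSH (0.557), GAA (0.335), NEU1 (0.421), ATP6V0C (0.601), ATP6V1A (0.358), ATP6V1F (0.328), ATP6AP1 (0.191) and ATP6AP2 (0.353) had values above 0. With quantile normalization CTSC (0.00243), CTSH (0.120), NEU1 (0.0385), ATP6V0C (0.153) and ATP6AP2 (0.0226) did, and without normalization CTSC (0.0577), CTSH (0.134) and ATP6V0C (0.179), while LIPA turned to -0.0794. CTSC (0.00993) and CTSH (0.0042) turned within slide 2, and ATP6V1A with array weights (0.0581) and within slide 1 (0.0898). With an array left out, CTSH lay between -0.0928 and 0.00241 and LIPA between -0.00549 and 0.0967. The causes were not tested.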
